A study of Mus musculus with 12 samples.

Results

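The genes described here are 10 genes of insulin-like growth factor (IGF) and insulin signalling, Igf1, Igf2, Igf1r, Igf2r, Insr, Irs1, Irs2, Igfbp3, Igfbp4 and Igfbp5. They were taken by gene symbol, with every probe set that the array annotation assigns to them, which gave 22 of the 22690 probe sets on the array. All 22 entered the tests, among 20050 probe sets that carry 1 gene symbol and are not at a limit of the scale on every array. They were read in mouse alpha cells (aTC1) and mouse beta cells (bTC3), lines derived from glucagon- and insulin-producing islet tumours of mice that carry the SV40 large T antigen. In each line, 3 biological replicate cultures received 3.3 µM GW8510, described by the study as a putative CDK2 inhibitor, in 0.1% DMSO, and 3 received 0.1% DMSO alone, all for 5 days. The labels give the same growth medium for both lines, naming only aTC1, and each cell type is represented by a single tumour line, so cell type, tumour and culture history cannot be told apart. The groups compared were aTC1 with DMSO, aTC1 with GW8510, bTC3 with DMSO and bTC3 with GW8510.

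Insulin and the IGFs act through related receptor tyrosine kinases, encoded by Insr and Igf1r. The active receptors phosphorylate the adaptor proteins IRS1 and IRS2, which pass the signal to PI3K and AKT and on to mTOR, GSK3 and the FOXO factors. IGF-binding proteins hold IGFs outside the cell and set how much ligand reaches the receptors, while the protein encoded by Igf2r binds IGF2 and carries it to lysosomes for degradation. In the islet, this pathway is known for its part in the growth and survival of beta cells, and IRS2 is required for beta cell mass in mice.

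Values are array intensities on a linear scale, as deposited, that lie between 20 and 20000. Array medians ran from 173.7 to 199.9 and array 25th percentiles from 51.2 to 61.0. The highest median belonged to bTC3 GW8510 replicate 3, whose median log2 value lay 0.16 above the mean of the 12 arrays. Of the bTC3 members counted below, the number called was 5 both with and without this array. Between replicates, Pearson's correlation across probe sets was 0.994 to 0.998, although probe sets are not independent replicates. The markers matched the labels only in part. Gcg was at the upper limit of 20000 on every aTC1 array, and Ins2 and Iapp were at 20000 on every bTC3 array. Ttr, listed for alpha cells, was at 20000 on every bTC3 array too. The bTC3 arrays also carried Gcg at 5997 to 6647 with DMSO and 11305 to 12890 with GW8510, and Sst at 17084 to 18296 with DMSO and 20000 with GW8510. In aTC1, 5 measured beta cell markers summed to 731 to 769 with DMSO and 1260 to 1372 with GW8510. Of these, Pdx1 read 65.4 to 74.0 and 355 to 398, Iapp 131 to 148 and 350.2 to 429, and Ins2 95.2 to 98.8 and 123 to 182. Nkx6-1 went the other way, at 389 to 446 and 362 to 384. Slc2a2 lay near the lower limit, at 23.4 to 24.6 and 20.9 to 23.2. In bTC3, Slc2a2 read 82.3 to 91.6 with DMSO and 2876 to 3242 with GW8510. There Pdx1 read 3181 to 3403 and 2779 to 2967, and Nkx6-1 992 to 1106 and 763 to 995. Irx2, listed for alpha cells, read 1828 to 1913 and 1322 to 1440 in aTC1, and 252 to 290 and 277 to 320 in bTC3. The summed intensity of 6 fibroblast markers was 332 to 357 and 317 to 392 in aTC1 with DMSO and GW8510, and 367 to 433 and 509 to 637 in bTC3, where Col1a2 went from 139 to 167 up to 274 to 328. Of single markers, Lum was at 20 on every array and Ptprc at 20 to 23.7, but others of their lists read higher. Over the 12 arrays, the leukocyte markers Csf1r, Lyz2, Cd14 and Adgre1 read 99.4 to 146, 72.2 to 99.0, 34.9 to 74.8 and 32.6 to 48.3. Summed intensities were 274 to 388 for 5 leukocyte, 290 to 448 for 4 acinar and 174 to 290 for 4 endothelial markers. Of 3 duct markers measured, the summed intensity was 1015 to 1066 and 2394 to 2476 in aTC1, which was carried by Krt7, and 339 to 355 and 477 to 535 in bTC3. The part of other cell types in the values below was not tested.

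For 4 members, the 250 bases before a start in the RefSeq promoter table are shown because these genes had the clearest responses to GW8510 among the receptors, substrates and ligands. They are RefSeq sequences of GRCm38.p6, written in the direction of the gene, and 9 of the 10 members matched the promoter table, with 12 promoters. The capitals mark CACGTG, a palindrome known as the canonical E-box, letters that were chosen after the windows had been read.
Igf2r, chr17:12769707-12769956, minus strand: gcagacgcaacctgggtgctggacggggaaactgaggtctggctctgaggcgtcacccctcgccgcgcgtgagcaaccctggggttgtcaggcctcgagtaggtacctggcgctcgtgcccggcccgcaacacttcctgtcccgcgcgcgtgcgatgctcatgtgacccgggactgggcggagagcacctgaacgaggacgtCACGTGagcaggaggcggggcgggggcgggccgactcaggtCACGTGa
Irs1, chr1:82291440-82291689, minus strand: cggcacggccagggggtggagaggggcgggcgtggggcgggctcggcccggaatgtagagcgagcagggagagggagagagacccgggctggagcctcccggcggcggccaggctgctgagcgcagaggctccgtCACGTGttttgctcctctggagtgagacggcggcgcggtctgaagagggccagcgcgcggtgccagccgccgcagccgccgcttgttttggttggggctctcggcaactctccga
Irs2, chr8:11008930-11009179, minus strand: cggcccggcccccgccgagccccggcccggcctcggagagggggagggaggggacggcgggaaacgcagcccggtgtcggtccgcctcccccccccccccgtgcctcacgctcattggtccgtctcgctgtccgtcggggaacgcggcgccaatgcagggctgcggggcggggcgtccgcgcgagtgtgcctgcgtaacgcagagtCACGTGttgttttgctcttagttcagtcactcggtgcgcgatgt
Igf1, chr10:87860861-87861110, plus strand: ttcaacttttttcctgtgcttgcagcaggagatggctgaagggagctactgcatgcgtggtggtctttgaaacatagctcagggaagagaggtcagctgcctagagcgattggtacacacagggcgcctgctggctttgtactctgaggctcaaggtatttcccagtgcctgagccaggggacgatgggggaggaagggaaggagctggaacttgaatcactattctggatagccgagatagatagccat
The Igf1 window lies inside the annotated extent of the gene given below, so its start is not the outermost one, and the table names no transcript. The Igf2r window held the 6 letters at 48 to 43 and at 7 to 2 bases before the start, Irs1 at 115 to 110 and Irs2 at 44 to 39, and the windows of the other matched members held none. Among 32851 promoters of the same length, 6.02% held CACGTG and 0.429% held it at least 2 times. Because the letters were chosen after the windows had been read, these shares do not test whether the members hold them more often. They also take no account of base content. TATAAA was searched too, and among the matched members it occurred in the window of Igfbp4. A match describes letters in the window and does not show that any factor binds there. With GW8510, Igf2r rose in both lines, Irs1 fell in both and Irs2 fell in alpha cells. Whether the letters have a part in these changes was not tested.

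Across the members, more probe sets passed the test in alpha cells than in beta cells. Expression was compared with limma, fitted to all 12 arrays, and a probe set was called at a Benjamini-Hochberg adjusted p under 0.05 over all 20050 probe sets. With GW8510, 13 of the 22 probe sets were called in aTC1, 3 higher and 10 lower, where 39.6% of all probe sets were called (18.8% higher and 20.8% lower). The treated and control arrays lay entirely apart on 13 of 22, beside 50.0%. In bTC3, 5 of 22 were called, 3 higher and 2 lower, beside 32.4% of all probe sets (18.6% and 13.8%), and the arrays lay apart on 7, beside 44.5%. The effect of GW8510 differed between the lines by the interaction test for 13 of 22, beside 26.1% of all, with 10 higher in bTC3 (15.3% of all) and 3 lower (10.8%). These include Igf1 1437401_at and 1419519_at and Igfbp5 1452114_s_at, whose bTC3 signal lay below the 25th percentile of every array. That signal may be background, so a fall in bTC3 could hardly be measured on them. The called probe sets came from 6 genes in aTC1 (Igf1, Igf2r, Irs1, Irs2, Igfbp4 and Igfbp5) and from 3 in bTC3 (Igf2r, Irs1 and Igfbp4). Since probe sets of 1 gene share a transcript, and Igfbp4 alone has 6, each gene was also read by its probe set of highest mean. By that reading, 5 of 10 genes were called in aTC1 beside 40.8% of 12255 genes, 2 of 10 in bTC3 beside 33.4%, and 5 of 10 for the difference beside 27.5%. The median log2 fold change over the 22 probe sets was -0.08 in aTC1, against 0.02 over all probe sets tested, and -0.03 in bTC3, against 0.06.

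**Figure D1:**
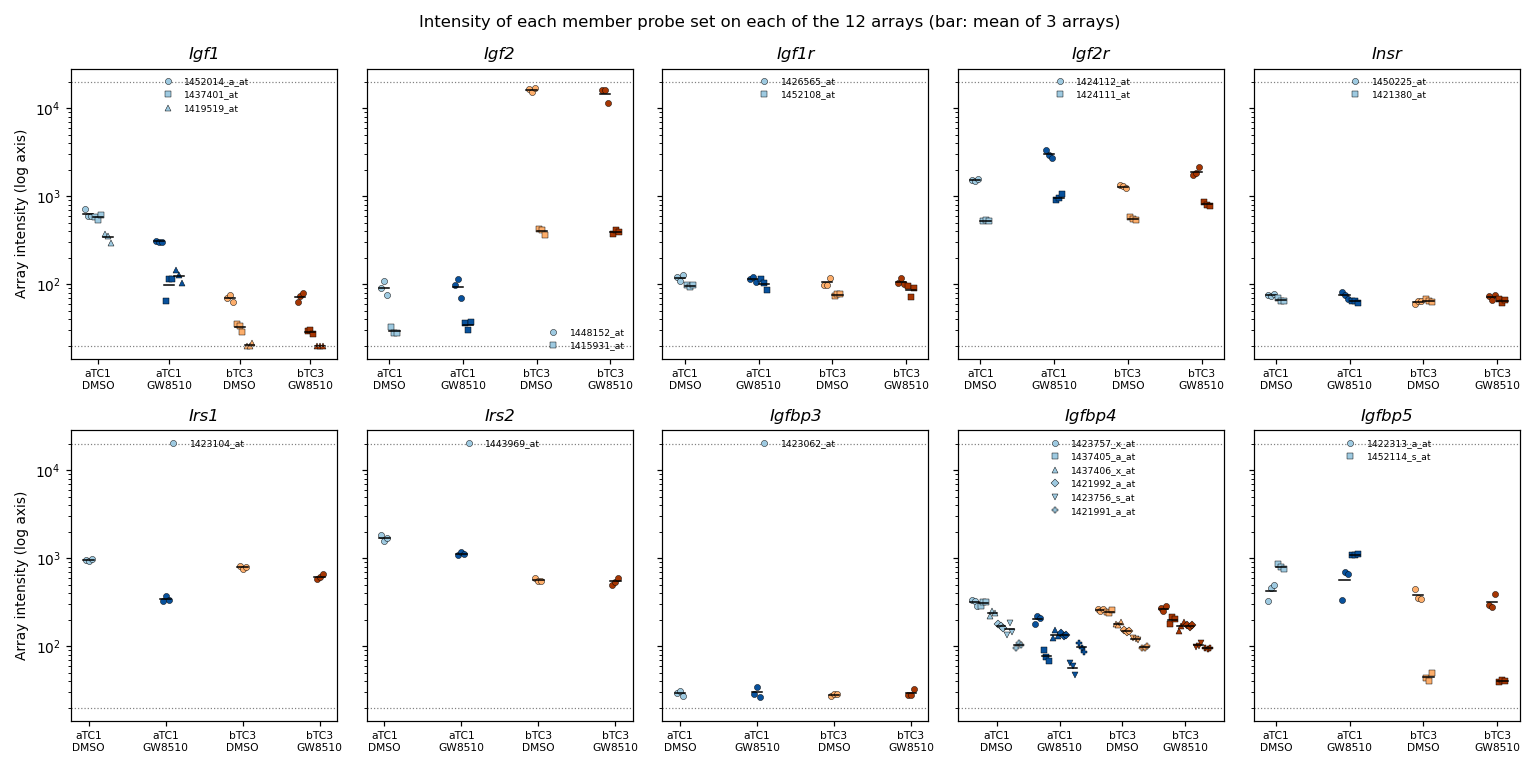
Array intensity (log axis) of each of the 22 probe sets on the 12 arrays, by group, with 1 symbol shape per probe set and a bar at the mean of 3 arrays. Dotted lines mark the limits of 20 and 20000, and Igf1 lies high in aTC1 and Igf2 high in bTC3.

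Of the ligands, Igf1 was expressed in alpha cells and fell with GW8510. Igf1 encodes the growth factor that acts on the IGF1 receptor, and the gene lies on chromosome 10 (chr10:87858265-87937047). On probe set 1452014_a_at, the intensity was 708, 588 and 598 in aTC1 with DMSO and 309, 304 and 305 with GW8510. On 1437401_at it was 575, 543 and 619 against 64.4, 115 and 115. On 1419519_at it was 375, 356 and 292 against 143, 128 and 103. All 3 probe sets thus separated the treated from the control arrays, with the widest gap on 1437401_at. The log2 fold changes of GW8510 over DMSO were -1.04 ± 0.10 (SE, adjusted p = 4.24e-06 by limma), -2.61 ± 0.18 (3.56e-07) and -1.46 ± 0.11 (9.12e-07). The probe sets shared a direction but not in size, their 95% intervals covering -1.25 to -0.82, -3.01 to -2.21 and -1.71 to -1.21. In bulk cultures, fewer cells that express a gene and less RNA per cell cannot be told apart.

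In beta cells, Igf1 was near the bottom of the scale on 1437401_at and 1419519_at and dim on 1452014_a_at. Intensities over the 6 bTC3 arrays were 63.1 to 79.9 on 1452014_a_at and 27.1 to 35.0 on 1437401_at, and treated and control arrays overlapped on both. On 1419519_at, 2 of 3 DMSO arrays and all 3 GW8510 arrays were at the lower limit of 20, so no fold is given there. The GW8510 effects in bTC3 did not pass on the other probe sets (log2 0.05 and -0.15, adjusted p = 0.716 and 0.567 by limma). With DMSO, Igf1 was 9.13-fold lower in bTC3 than in aTC1 on 1452014_a_at (adjusted p = 7.11e-11 by limma) and 18.0-fold lower on 1437401_at (1.55e-09). On the latter, the bTC3 signal lay below the 25th percentile of every array and may be background, so its fold depends on that signal, and a further fall with GW8510 could hardly be measured there. After GW8510, the alpha cell intensities still lay above all beta cell intensities on each of the 3 probe sets.

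Igf2 showed the opposite distribution and no response that passed the test. It encodes a growth factor of fetal life, is expressed from the paternal allele in most tissues, and lies on chromosome 7. On 1448152_at, aTC1 arrays read 90.7, 108 and 76.1 with DMSO and 96.8, 113 and 69.3 with GW8510. On the same probe set, bTC3 arrays read 16544, 15412 and 16978 with DMSO and 16082, 16190 and 11436 with GW8510. The lowest of these 6 was bTC3 GW8510 replicate 3, and the treated and control arrays overlapped in both lines. With DMSO, Igf2 was 180-fold higher in bTC3 than in aTC1 (95% interval 136 to 239, adjusted p = 1.2e-11 by limma). On 1415931_at the intensity was 27.6 to 36.7 in aTC1, below the 25th percentile of every array, and 367 to 423 in bTC3, a 13.7-fold difference with DMSO (adjusted p = 9.66e-12 by limma). Because detection calls were not used, a signal this low in aTC1 may be background, and both folds depend on it. For GW8510 on 1448152_at, the 95% intervals of the log2 fold change were -0.39 to 0.42 in aTC1 and -0.59 to 0.23 in bTC3. On 1415931_at in aTC1, the log2 fold change was 0.22 (adjusted p = 0.0761 by limma), which passed when arrays were shifted to the same median (0.0443), without aTC1 DMSO replicate 1 (0.0316) and without aTC1 GW8510 replicate 2 (0.0217).

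Among the receptors, those that signal were dim and did not pass the test, while Igf2r rose in both lines. Igf1r encodes the IGF1 receptor, and its 2 probe sets read 105.9 to 126 and 86.1 to 116 in aTC1 and 97.2 to 117 and 72.0 to 94.8 in bTC3. Insr encodes the insulin receptor and read 68.6 to 81.2 and 60.8 to 70.1 in aTC1 and 59.4 to 74.4 and 60.8 to 68.5 in bTC3. All of these lie below the median of every array, and signals this low may partly be background. A change of the transcripts could then hardly be measured, so the intervals below describe the intensities only. The GW8510 effects on these 4 probe sets ranged from -0.07 to 0.07 in aTC1 and from 0.01 to 0.19 in bTC3 on the log2 scale. The 95% intervals reached at most 0.32 in aTC1 and 0.42 in bTC3 upward, and -0.25 and -0.17 downward. The highest of these was Insr 1450225_at in bTC3, where 3 treated arrays (74.0, 65.9 and 74.4) lay above 3 control arrays (59.4, 63.8 and 64.5). Its log2 fold change was 0.19 ± 0.07 (SE, adjusted p = 0.0684 by limma), which passed without bTC3 GW8510 replicate 2 (0.032), without aTC1 GW8510 replicate 1 (0.043) and without aTC1 GW8510 replicate 3 (0.0455).

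Igf2r encodes the IGF2 and mannose 6-phosphate receptor, which also sorts newly made enzymes to the lysosome, and lies on chromosome 17 (chr17:12682406-12769706). On 1424112_at, aTC1 arrays read 1547, 1482 and 1549 with DMSO and 3341, 2955 and 2725 with GW8510. The bTC3 arrays read 1323, 1302 and 1232 with DMSO and 1724, 1849 and 2130 with GW8510. Every treated array was above every control array of its line. The fold change was 1.96 in aTC1 (95% interval 1.72 to 2.24, adjusted p = 2.89e-06 by limma) and 1.47 in bTC3 (1.29 to 1.68, 4.32e-04). The other probe set, 1424111_at, went from 523 to 529.9 up to 897 to 1052 in aTC1 and from 542 to 576 up to 779 to 869.8 in bTC3. Its log2 fold changes were 0.87 ± 0.07 (SE, adjusted p = 7.88e-07 by limma) and 0.56 ± 0.07 (6.24e-05). Both rises passed on both probe sets under every alternative run, each array left out in turn included.

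The rise of Igf2r was smaller in bTC3 by -0.41 ± 0.12 on 1424112_at (SE, log2, adjusted p = 0.0283 by limma) and by -0.31 ± 0.09 on 1424111_at (0.0309). This difference between lines was not firm. On 1424112_at it was lost without 1 of 7 arrays (aTC1 DMSO replicates 1 and 2, aTC1 GW8510 replicate 1, bTC3 DMSO replicates 1 and 2, and bTC3 GW8510 replicates 1 and 2), with an adjusted p of 0.00687 to 0.0664 over the 12 arrays left out. On 1424111_at it was lost without 1 of 8 arrays (all 3 aTC1 DMSO arrays, aTC1 GW8510 replicate 3, bTC3 DMSO replicates 1 and 2, and bTC3 GW8510 replicates 2 and 3), with an adjusted p of 0.0125 to 0.0767.

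**Figure D2:**
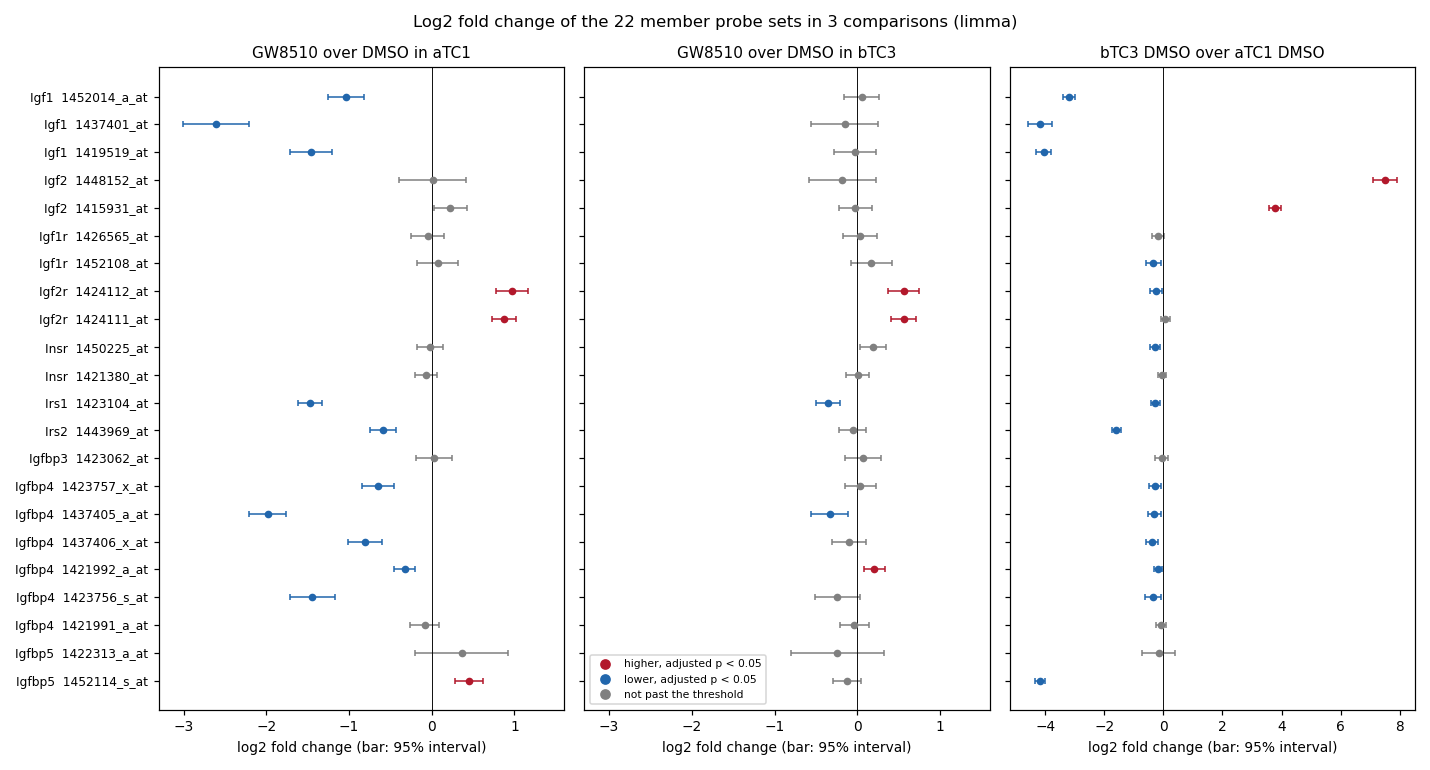
Log2 fold change with its 95% interval (limma) for the 22 probe sets, for GW8510 over DMSO in aTC1, the same in bTC3, and bTC3 over aTC1 with DMSO, whose axis is wider. Red and blue points are higher and lower at adjusted p under 0.05 (13 in aTC1 and 5 in bTC3 with GW8510), and grey points did not pass.

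Both receptor substrates fell in alpha cells. Irs1 and Irs2 encode the adaptors that link the receptors to PI3K, and each was read by 1 probe set. Irs1, on chromosome 1 (chr1:82233105-82291439), read 942, 933 and 968 in aTC1 with DMSO and 327, 368 and 333 with GW8510. In bTC3 it read 815, 752 and 794 with DMSO and 585, 605 and 661 with GW8510. The groups did not overlap in either line, but the gap was wider in aTC1. The treated level was 0.361 of the control level in aTC1 (95% interval 0.327 to 0.399, adjusted p = 9.32e-09 by limma) and 0.784 in bTC3 (0.71 to 0.866, 0.00143). The difference between the lines was 1.12 ± 0.09 on the log2 scale (SE, adjusted p = 4.19e-06 by limma). Irs1 was 1.2-fold lower in bTC3 than in aTC1 with DMSO (adjusted p = 0.00369 by limma), whereas with GW8510 all 3 bTC3 arrays lay above the aTC1 arrays.

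Irs2, on chromosome 8 (chr8:10984681-11008929), read 1815, 1562 and 1699 in aTC1 with DMSO and 1098, 1166 and 1106 with GW8510. In bTC3 it read 589, 549 and 549 with DMSO and 499, 541 and 586 with GW8510, where the groups overlapped. The log2 fold change was -0.59 ± 0.07 in aTC1 (SE, adjusted p = 4.47e-05 by limma) and -0.06 ± 0.07 in bTC3 (0.614). The effects differed by 0.53 ± 0.10 (SE, adjusted p = 0.00261 by limma). Irs2 was 3.01-fold lower in bTC3 than in aTC1 with DMSO (adjusted p = 2.55e-09 by limma), and its treated aTC1 arrays still lay above every bTC3 array.

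The IGF-binding proteins behaved in separate ways. Igfbp3 encodes the main carrier of IGFs in serum and read 26.6 to 34.6 over all 12 arrays, below the 25th percentile of every array. None of its contrasts passed, with GW8510 effects of 0.03 in aTC1 (95% interval -0.19 to 0.25) and 0.07 in bTC3 (-0.15 to 0.29) on the log2 scale.

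Igfbp4, which encodes a binding protein that is known as an inhibitor of IGF action, fell in alpha cells on 5 of its 6 probe sets. On 1437405_a_at, the intensity was 284, 315 and 316 in aTC1 with DMSO and 90.0, 74.8 and 67.9 with GW8510. On 1423757_x_at, the probe set of highest mean, it was 335, 327 and 286 against 179, 219 and 207. On 1421991_a_at it was 95.8, 109 and 102 against 108, 95.8 and 86.2, so that this probe set alone overlapped between the groups. The log2 fold changes in aTC1 were -1.98, -1.44, -0.81, -0.65 and -0.33 on the 5 that passed (adjusted p of 2.92e-08 to 6.61e-04 by limma) and -0.09 on 1421991_a_at (0.441). The suffixes _s_at and _x_at mark designs that can also bind other transcripts, and 3 of the 5 carry one. The 5 probe sets shared a direction, while the size of the fall ranged from 1.25-fold to 3.95-fold.

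In bTC3, the probe sets of Igfbp4 did not agree. On 1437405_a_at the arrays read 244, 235 and 259.7 with DMSO and 176, 211 and 201 with GW8510, a log2 fold change of -0.33 ± 0.10 (SE, adjusted p = 0.0273 by limma). On 1421992_a_at they read 151, 144 and 149 with DMSO and 173, 165 and 175 with GW8510, a log2 fold change of 0.21 ± 0.06 (SE, adjusted p = 0.0166 by limma). The fall on 1437405_a_at was lost without bTC3 DMSO replicate 1 (adjusted p = 0.0651 by limma), bTC3 DMSO replicate 3 (0.0872) or bTC3 GW8510 replicate 1 (0.106). The rise on 1421992_a_at was lost without bTC3 DMSO replicate 2 (0.0655) and with a trended, robust estimate of the spread (0.0867). The other 4 did not pass, and 1423756_s_at at -0.24 (adjusted p = 0.168 by limma) passed when only the bTC3 arrays were fitted (0.0279). The effect of GW8510 differed between the lines on the same 5 probe sets that fell in aTC1, by 0.53 to 1.65 on the log2 scale.

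Igfbp5 encodes a binding protein that also attaches to the extracellular matrix, and its 2 probe sets disagreed. On 1452114_s_at, aTC1 arrays read 849.7, 797 and 748 with DMSO and 1083, 1088 and 1107 with GW8510, while all 6 bTC3 arrays read 38.6 to 49.1. The log2 fold change was 0.45 ± 0.08 in aTC1 (SE, adjusted p = 4.59e-04 by limma) and -0.12 ± 0.08 in bTC3 (0.254), a difference of -0.58 ± 0.11 (0.00201). The bTC3 effect passed when the arrays were quantile normalized once more (-0.22, adjusted p = 0.0383 by limma). With DMSO, Igfbp5 was 18.2-fold lower in bTC3 on this probe set (adjusted p = 9.79e-13 by limma), a fold that depends on a bTC3 signal below the 25th percentile of every array, which may be background. On 1422313_a_at, aTC1 arrays read 324, 454 and 492 with DMSO and 336, 691 and 659.6 with GW8510, and bTC3 arrays 277 to 439. Here aTC1 and bTC3 overlapped, and the difference between the lines with DMSO was -0.16 ± 0.26 (SE, log2, adjusted p = 0.642 by limma). The GW8510 effect in aTC1 on this probe set was 0.36 ± 0.26 (adjusted p = 0.315 by limma) and became 0.70 (0.017) without aTC1 GW8510 replicate 1, which read 336. The interaction on the same probe set was -0.60 (0.277) and became -0.94 (0.024) without that array.

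Between the untreated lines, the members that passed the test were lower in beta cells, with Igf2 as the exception. With DMSO, 16 of the 22 probe sets were called, 2 higher in bTC3 (both of Igf2) and 14 lower, beside 55.5% of all probe sets (26.0% higher and 29.6% lower), and the groups lay apart on 17, beside 65.4%. By gene, 7 of 10 were called, beside 55.5%. The median log2 difference over the members was -0.27, against -0.05 over all probe sets. The wide differences were those of Igf1, Igf2, Irs2 and the _s_at probe set of Igfbp5 given above. The other 9 called probe sets, of Igf1r, Igf2r, Insr, Irs1 and Igfbp4, differed by log2 -0.19 to -0.39. The probe sets of Igf2r disagreed, since 1424111_at did not pass and leaned higher in bTC3 (log2 0.07, adjusted p = 0.394 by limma), with the groups apart. Without bTC3 DMSO replicate 2, 10 of 22 were called, since 6 of these small differences no longer passed. The comparison of the untreated lines shares its DMSO arrays with the GW8510 comparisons.

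The members whose group means span at least log2 1 on their probe set of highest mean were set beside every other gene by their profile over the 12 arrays. The measure of likeness was the root mean square difference of log2 values, each profile centred on its own mean, and a smaller value means a closer profile. For Igf1 the nearest genes were Hey1 (0.159), which encodes a transcriptional repressor induced by Notch, and Tm6sf1 (0.177). For Igf2 they were Rps4l (0.287) and Cdhr1 (0.290). Igf2r was closest to Pdcd6ip (0.087), which encodes the endosomal sorting protein ALIX, and Txnl4a (0.105). Irs1 was closest to Herpud1 (0.078), a gene of the degradation of proteins in the endoplasmic reticulum, and Pip5k1b (0.096), which encodes a phosphatidylinositol phosphate kinase. Irs2 was closest to Ecsit (0.101) and Kif21a (0.112).

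The wider pathway was read through 77 listed genes in 10 groups by role, of which 64 were measured, members included. In aTC1, 28 of 64 genes (43.8%) were called with GW8510, 10 higher and 18 lower, beside 40.8% of all genes (19.9% higher and 20.9% lower). In bTC3, 21 of 64 (32.8%) were called, 11 higher and 10 lower, beside 33.4% (19.3% and 14.1%). Both shares were near those of all genes, and the median log2 fold changes of 0.01 and 0.05 were near the 0.03 and 0.07 of all genes. Without the members, 23 of 54 were called in aTC1 and 19 of 54 in bTC3. Ins2, a ligand gene of this list, went from 98.8, 96.5 and 95.2 with DMSO to 123, 154 and 182 with GW8510 in aTC1 (log2 0.64, adjusted p = 3.8e-04 by limma), and no fold can be given in bTC3, where it was at 20000 throughout.

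The adaptors and kinases near the receptor moved in different directions. Shc1, which links the receptors to RAS, rose in aTC1 from 247, 257 and 258 to 488, 447 and 471 (log2 0.88) and in bTC3 from 407, 403 and 381 to 615, 678 and 689 (log2 0.73), but its other probe set did not pass in either line (0.22 and 0.32). Grb14, an adaptor that inhibits the insulin receptor, fell in bTC3 from 103, 80.9 and 71.3 to 30.7, 31.5 and 32.8 (log2 -1.41, adjusted p = 5.59e-06 by limma), and was 22.2 to 29.1 on all aTC1 arrays. The treated bTC3 and all aTC1 readings lay below the 25th percentile of every array and may be background. The size of the bTC3 fall depends on that signal, and a fall in aTC1 could hardly be measured. Pik3r1, the regulatory subunit of PI3K, fell in aTC1 from 1346, 1255 and 1285 to 728, 705 and 721 (log2 -0.85), with -0.21 in bTC3 (adjusted p = 0.0575 by limma). Its probe set 1425514_at fell in both lines (log2 -0.83 and -0.29, adjusted p = 3.61e-05 and 0.0446), and 1451737_at fell in aTC1 (-0.36) and showed 0.02 in bTC3 (0.941). Pik3ca, a catalytic subunit, fell in both lines (log2 -0.32 and -0.53), and Akt1 rose in both (0.37 and 0.40). In the group of PI3K, PDK1 and AKT, 1 of 6 measured genes rose and 2 fell in aTC1, beside 19.9% and 20.9% of all genes, and 1 rose and 1 fell in bTC3, beside 19.3% and 14.1%.

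Among the genes that restrain the pathway, 3 of 8 measured rose and 3 fell in aTC1 (all genes, 19.9% and 20.9%), and 1 rose and 3 fell in bTC3 (all genes, 19.3% and 14.1%). Trib3, whose product binds AKT, fell in aTC1 from 1386, 1353 and 1009 to 225, 274 and 231 (log2 -2.35, adjusted p = 4.63e-08 by limma), with -0.21 in bTC3 (0.246). Phlda3, a competitor of AKT for membrane lipids, rose in aTC1 from 125, 142 and 131 to 629, 612 and 660.4 (log2 2.26, adjusted p = 1.04e-08 by limma), with 0.06 in bTC3 (0.712). Socs2, an inhibitor of growth hormone signalling, fell in both lines (log2 -0.89 and -0.90), with an interaction of -0.01 (adjusted p = 0.974 by limma). Phlpp1, a phosphatase of AKT, fell in both as well (log2 -0.89 and -0.59).

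**Figure D3:**
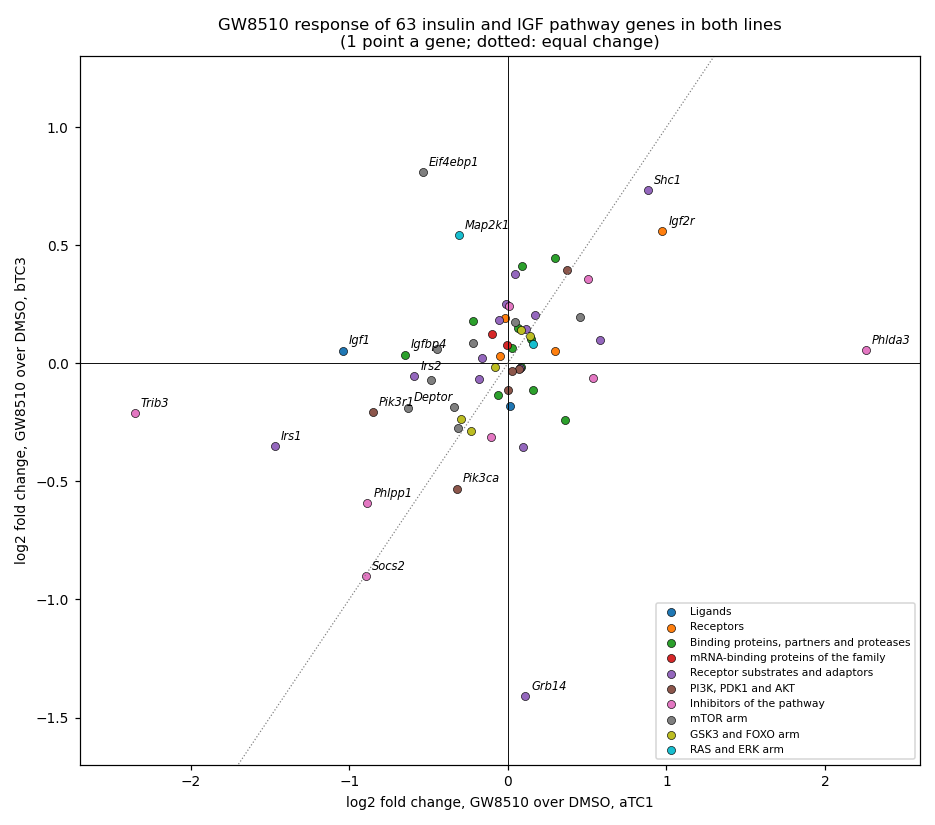
Log2 fold change of GW8510 over DMSO in aTC1 (horizontal) against that in bTC3 (vertical) for 63 measured pathway genes, 1 point a gene, coloured by role. Trib3, Phlda3 and Irs1 lie farthest out along the aTC1 axis and Grb14 along the bTC3 axis, and Eif4ebp1 and Map2k1 lie on opposite sides of zero in the 2 lines, while Ins2 is left out because it was at the upper limit on all bTC3 arrays.

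In the mTOR arm, 6 of 9 measured genes fell and 1 rose in aTC1, where 20.9% of all genes fell and 19.9% rose, with a median log2 fold change of -0.34, against 0.03 over all genes. In bTC3, 1 fell and 3 rose, where 14.1% and 19.3% of all genes did, with a median of 0.06, against 0.07. Eif4ebp1, which encodes a repressor of translation that mTOR inactivates, read 4308, 3837 and 3216 in aTC1 with DMSO and 2458, 2606 and 2732 with GW8510. In bTC3 it read 956, 1074 and 916 with DMSO and 1733, 1579 and 1858 with GW8510. It thus fell in aTC1 (log2 -0.53, adjusted p = 0.00138 by limma) and rose in bTC3 (0.81, 1.09e-04), and its other 2 probe sets passed in the same opposite directions (-0.58 and -0.62 against 0.77 and 0.37). Deptor, an inhibitor within the mTOR complexes, fell in aTC1 on 2 of its 3 probe sets (log2 -0.63 and -1.08) and did not pass in bTC3. Rps6, a ribosomal protein that the pathway phosphorylates, fell in aTC1 (log2 -0.49) but not on its other probe set (0.13, adjusted p = 0.243 by limma). Tsc2, which restrains mTOR, rose in both lines (log2 0.45 and 0.20), the latter lost without bTC3 DMSO replicate 2 or 3 (highest adjusted p = 0.0615 by limma). Tsc1, of the same list, went the other way in aTC1, at 905 to 926 with DMSO and 672 to 678 with GW8510. In bTC3, Tsc1 read 456 to 553 and 494 to 605, where the groups overlapped.

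Further downstream, Foxo1, a transcription factor that insulin signalling keeps out of the nucleus, fell in both lines (log2 -0.23 and -0.29), on the probe set of highest mean. Of its 4 probe sets, 2 passed in aTC1 and 3 in bTC3, all lower. Gsk3b fell in aTC1 (log2 -0.30, adjusted p = 0.0129 by limma), a call lost without aTC1 DMSO replicate 1 (0.0546), and its fall in bTC3 (-0.24, 0.0468) was lost in 9 of the 12 runs that left out an array, with an adjusted p of 0.0118 to 0.164. Map2k1, which encodes the ERK kinase MEK1, went from 759, 777 and 824 to 574, 688 and 649 in aTC1 (log2 -0.31, adjusted p = 0.00499 by limma) and from 1075, 1074 and 1162 to 1563, 1563 and 1693 in bTC3 (0.54, 1.52e-04). Among the binding partners and proteases, 2 of 11 (18.2%) were called in each line, beside 40.8% and 33.4% of all genes. In aTC1, 1 was higher and 1 lower, and in bTC3 2 were higher. These were Htra1, a protease of IGF-binding proteins, in both lines (log2 0.30 and 0.44), Igfbp4 in aTC1, and Igfals, a partner of the circulating IGF complex, in bTC3 (0.41). Others of the list were dim, as Igfbp1 (37.5 to 58.0), Igfbp3 (26.6 to 34.6) and Pappa (41.9 to 63.7), which limits what could be called. Igfbp5 was read here by 1422313_a_at, which did not pass, while its 1452114_s_at passed in aTC1. Htra1 was dim, at 48.8 to 50.9 with DMSO and 56.5 to 72.6 with GW8510 over both lines, near the array 25th percentiles, on an _x_at probe set. On its other probe set the log2 fold changes were 0.51 and 0.19, the latter not passing (adjusted p = 0.111 by limma). Listed genes outside the 64 were not analysed here.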

How the data were processed

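RNA of 12 cultures was measured on Affymetrix Mouse Genome 430A arrays. The intensities were deposited by the authors on a linear scale, and the submitters' processing notes name RMA, with a version not given in the sources used here. RMA subtracts background, brings arrays to a common distribution and summarises each probe set. The deposited arrays did not share a single distribution, since their medians ran from 173.7 to 199.9, and any later step is not described in the sources used here. The limits of 20 and 20000 were read from the values. On an array, 703 to 1109 probe sets were at the lower limit and 38 to 49 at the upper, and the number of arrays limits precision.

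Intensities were converted to log2 with no pseudocount. Of 22690 probe sets, 64 controls, 691 with several gene symbols and 1555 with none were left out, as were 330 at a limit on all arrays. Gene IDs of 20351 probe sets matched RefSeq, and 0 symbols changed. The 4 groups were fitted by group means in limma 3.58.1 (R 4.3.3), with empirical Bayes (8 residual and 3.48 prior degrees of freedom) and Benjamini-Hochberg adjustment over 20050 probe sets. Over all probe sets, standard errors of GW8510 effects had a median of 0.09 (log2). Coordinates are those of GRCm38.p6 in RefSeq. The fit was checked on simulated arrays.

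Groups follow the cell line and compound in the labels, whose source names read GW8511 and GW8512 on treated replicates 2 and 3. The members, gene lists and tests were chosen with earlier results of these data known. Named genes are all members, up to 4 genes of each pathway list with the largest change among those called, and the 2 nearest profiles. Tsc1 was added after its values were seen. Settings varied were the normalization, 1 against all probe sets per gene, removal of the dimmest 25% of probe sets, the groups fitted together, the estimate of spread, a pseudocount of 16, replicate number as a block, and each array omitted in turn.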

Additional observations from a re-analysis of the deposited data

Results flagged for a closer look

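The results listed here are differences of the GW8510 effect between the lines (bTC3 minus aTC1, log2) that passed the interaction test in limma at an adjusted p under 0.05. Groups of 3 arrays were not tested for single samples that lie apart. For Igf1 the differences were 1.09, 2.46 and 1.43 on 1452014_a_at, 1437401_at and 1419519_at, but on the last of these the treated bTC3 arrays were all at the lower limit and on 1437401_at the bTC3 signal lay below the 25th percentile of every array. The bTC3 effect was not measured on the former and could hardly be on the latter, so these values largely restate the fall in aTC1. For Igfbp4 they were 1.65 on 1437405_a_at, 1.20 on 1423756_s_at, 0.70 on 1437406_x_at, 0.69 on 1423757_x_at and 0.53 on 1421992_a_at. Irs1 differed by 1.12, Irs2 by 0.53 and Igfbp5 1452114_s_at by -0.58, where the bTC3 signal also lay below the 25th percentile of every array. Igf2r differed by -0.41 and -0.31, both of which were lost without 1 of several arrays, as given above.

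Among other pathway genes, the difference was 2.14 for Trib3, 1.35 for Eif4ebp1, 0.85 for Map2k1, 0.64 for Pik3r1 and 0.41 for Rps6. It was -2.20 for Phlda3 and -1.52 for Grb14. For Grb14, the aTC1 and treated bTC3 signals lay below the 25th percentile of every array, so a fall in aTC1 could hardly be measured. It was 0.44 for Deptor, 0.30 for Phlpp1 and -0.25 for Tsc2, and these 3 were lost in 7, 8 and 9 of the 12 runs that left out an array, with highest adjusted p of 0.0776, 0.0868 and 0.0945 by limma. For Eif4ebp1 and Map2k1 every treated array lay below every control array in aTC1 and above in bTC3.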

How the results depend on the processing

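Of 3412 values of single probe sets under 20 alternative settings, 99 lost the call and 25 gained it. Of the values called in the reported fit, 0 changed sign, while 68 alternatives of values that were not called did. With 1 probe set per gene, 5 members were called in aTC1, 2 in bTC3, 5 for the difference between lines and 7 between the untreated lines, since 10 features then stand for 22. Leaving out each array in turn gave 13 to 14 called members in aTC1, 4 to 6 in bTC3, 11 to 13 for the difference and 10 to 16 between the untreated lines, and 27 to 30 pathway genes in aTC1 and 17 to 23 in bTC3. The fit of only 2 groups gives no value for the difference. Deviations of same-numbered arrays correlated at -0.066 to 0.030 in aTC1 and -0.130 to 0.057 in bTC3, so no pairing by replicate number was visible. The paper calls its vehicle controls matched, and these correlations do not show that the cultures were unpaired. With the replicate block, 13, 4, 11 and 15 members were called in these comparisons, and 28 and 19 pathway genes. The block ended the difference between lines for Igf2r on 1424112_at and 1424111_at (adjusted p = 0.0533 and 0.058 by limma), for Deptor (0.0538), Phlpp1 (0.0579) and Tsc2 (0.0634), the bTC3 falls of Igfbp4 1437405_a_at (0.0519) and Gsk3b (0.0811), and the difference between untreated lines of Igf2r 1424112_at (0.0524). Low signals, as of Igfbp3, Igf1r and Insr and of Igf1 in bTC3, limit what could be seen.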

Other observations

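Some pathway genes that hardly moved with GW8510 differed widely between the untreated lines, and they were chosen after their values were seen. Grb10, an adaptor that inhibits insulin and IGF receptors and is imprinted like Igf2 and Igf2r, read 3307, 3437 and 3217 in aTC1 with DMSO and 37.3, 33.5 and 51.4 in bTC3, a log2 difference of -6.37 (adjusted p = 3.49e-12 by limma) that depends on a bTC3 signal near or below the 25th percentile of the arrays, which may be background. Its other 2 probe sets were lower in bTC3 by far less (-1.25 for the larger difference). Gab1, a docking protein for PI3K, read 173, 184 and 150 in aTC1 and 44.7, 41.1 and 52.2 in bTC3, where the signal is as low (log2 -1.88, adjusted p = 1.24e-07 by limma), and its other 2 probe sets were lower as well (-1.97 and -0.63). Akt2 read 867, 896 and 855 against 410, 446 and 446 (log2 -1.01, adjusted p = 8.48e-08 by limma). The GW8510 effects of these 3 genes did not pass in either line.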
